A study of Mus musculus with 6 samples.

Results

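Levels of 10 genes of the NF-kB pathway were described by cell class and genotype in single-nucleus RNA sequencing of the mouse lumbar spinal cord. The genes were the NF-kB subunits Nfkb1, Nfkb2, Rela, Relb and Rel, the inhibitors Nfkbia and Tnfaip3, and the IKK complex genes Ikbkb, Chuk and Ikbkg. They were taken by symbol from the 32285 genes of the deposited matrices, and each of the 10 symbols was found once. They held 50219 of the 146898504 unique molecular identifiers (UMIs, each standing for 1 captured RNA molecule) in the nuclei kept. SOD1G93A/PHD1-/- mice were compared with SOD1G93A/PHD1+/+ mice, with 3 libraries each, all from C57BL/6 mice at 110 days of age. Every animal therefore carried SOD1G93A, a transgene for a mutated human enzyme that gives mice a motor neuron disease, and no library came from a mouse without it. PHD1 is the oxygen-sensing prolyl hydroxylase encoded by Egln2; the deleted stretch and the cells it is deleted in are not named in the labels. The series compares these groups to ask how loss of PHD1 acts on the diseased spinal cord.

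NF-kB is a family of dimeric transcription factors that rest in the cytoplasm, held by IkB proteins such as the product of Nfkbia. In the canonical pathway, receptors for TNF, IL-1 and microbial products activate the IKK complex of IKKbeta (Ikbkb), IKKalpha (Chuk) and NEMO (Ikbkg), which marks IkB for destruction and frees dimers such as p50 (from Nfkb1) with p65 (Rela) or c-Rel (Rel). In the non-canonical pathway IKKalpha drives the processing of p100 (Nfkb2) to p52, which pairs with RelB (Relb). Nfkbia and Tnfaip3 (A20, a ubiquitin-editing enzyme) are themselves induced by NF-kB and close negative feedback loops. In the nervous system the pathway is best known from microglia, the resident macrophages, and from astrocytes and blood vessels in inflammation. RNA levels say nothing of whether the proteins were in the nucleus or active.

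In replicate order, 6577, 7216 and 5996 nuclei of the PHD1-/- libraries were kept, and 9153, 7756 and 5208 of the PHD1+/+ libraries. They held 14074710, 32508245 and 27775271 UMIs in PHD1-/- and 18860819, 30546128 and 23133331 UMIs in PHD1+/+ libraries. Replicate 1 of both genotypes stood apart. Its nuclei had a median of 1365 UMIs in PHD1-/- and 1363 UMIs in PHD1+/+, while the other 4 libraries had medians of 2290.5 to 2902, and they carried barcodes of a different list. The 2 replicate 1 libraries shared 86 barcodes, and any other pair shared 0 to 14. Most replicate 1 microglia and oligodendrocytes fell in clusters of their own. Egln2 was measured at 9.66, 9.04 and 10.1 UMIs per 1000000 UMIs of the library (CPM) in PHD1-/- and at 29.6, 18.8 and 16.4 CPM in PHD1+/+ libraries. The genotypes did not overlap, and an exact two-sided permutation test gave the smallest p that 3 against 3 libraries allow, 0.1.

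In the assembly the files use (mm10, equal to GRCm38), Nfkb1 lies at chr3:135584655-135691547 on the minus strand, Nfkb2 at chr19:46304320-46312385 on the plus strand and Rela at chr19:5637483-5648130 on the plus strand. Relb lies at chr7:19606217-19629438 and Rel at chr11:23736847-23770970, both on the minus strand. Nfkbia lies at chr12:55489410-55492647 and Tnfaip3 at chr10:19000910-19015657, again on the minus strand. Ikbkb lies at chr8:22659212-22706589 and Chuk at chr19:44073335-44107480 on the minus strand, and Ikbkg at chrX:74393290-74453854 on the plus strand. Nfkb2 overlaps Psd, Ikbkg overlaps G6pdx and Ikbkb overlaps Gm15346, each on the opposite strand, and Nfkb1 overlaps Gm43430 on its own strand. Whether reads of these partners entered the counts was not tested.

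The promoters of genes that NF-kB is known to induce are shown because the kB element, the sequence that NF-kB dimers bind, can be read in them. RefSeq promoters (GRCm38.p6, the 250 bases before the annotated start) were matched for 7 of the 10 genes. The kB consensus, a motif of 10 bases searched on both strands with overlapping matches merged, was present in 4 of the 7 (Nfkb2, Rel, Nfkbia and Tnfaip3), against 7.25% of the 32851 promoters in the table. It was not found in these windows of Rela, Chuk and Ikbkg. Each promoter is given 5′ to 3′ on its gene's strand, with the kB matches in capitals.
Nfkb2, chr19:46304487-46304736, plus strand: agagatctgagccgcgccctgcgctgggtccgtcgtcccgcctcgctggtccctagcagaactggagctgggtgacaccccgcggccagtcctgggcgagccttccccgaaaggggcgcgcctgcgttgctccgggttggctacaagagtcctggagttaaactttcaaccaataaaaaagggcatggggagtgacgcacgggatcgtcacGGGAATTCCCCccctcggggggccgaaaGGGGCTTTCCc
Rel, chr11:23770970-23771219, minus strand: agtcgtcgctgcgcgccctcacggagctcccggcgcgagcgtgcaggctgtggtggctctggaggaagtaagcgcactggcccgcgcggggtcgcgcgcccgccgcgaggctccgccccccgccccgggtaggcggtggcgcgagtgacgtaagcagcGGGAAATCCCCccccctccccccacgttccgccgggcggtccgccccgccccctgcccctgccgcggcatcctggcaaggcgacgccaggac
Nfkbia, chr12:55492648-55492897, minus strand: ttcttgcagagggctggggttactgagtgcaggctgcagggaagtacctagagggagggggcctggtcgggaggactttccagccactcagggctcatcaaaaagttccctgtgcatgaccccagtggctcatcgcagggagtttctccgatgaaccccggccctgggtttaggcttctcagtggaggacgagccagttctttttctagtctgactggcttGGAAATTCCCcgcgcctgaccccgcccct
Tnfaip3, chr10:19015411-19015660, minus strand: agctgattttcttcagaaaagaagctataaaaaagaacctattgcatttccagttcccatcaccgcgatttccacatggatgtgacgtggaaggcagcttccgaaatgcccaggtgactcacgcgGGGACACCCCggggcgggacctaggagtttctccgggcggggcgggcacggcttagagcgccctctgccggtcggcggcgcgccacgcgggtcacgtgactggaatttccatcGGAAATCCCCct
Nfkb2 and Tnfaip3 held 2 separate matching stretches each, the nearer one ending 2 bases before the start in Nfkb2 and 3 bases before it in Tnfaip3. The stretch in Rel began 92 bases and that in Nfkbia 29 bases before the start. A match describes the letters and does not show that a dimer was bound.

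The nuclei were clustered without the 10 genes and without the 80 other pathway genes described below, and 16 classes were named from marker genes. In 12 classes every library held at least 10 nuclei. Orders of level are given over these 12 classes, and the 4 smaller classes are described after them. In the 12, the UMIs of each library were summed and compared with the sum of all its other nuclei. In microglia 8 of the 10 genes were higher and 1 lower than in the other nuclei of the same libraries, where 30.1% of all genes tested were called higher and 37.9% lower. In excitatory neurons 1 gene was higher and 9 were lower, against 30.2% and 31.5% of all genes. In inhibitory neurons 4 of 10 were lower and the others did not pass the test, with 29.5% of all genes called higher and 27.4% lower. In oligodendrocytes 4 of 9 genes tested were higher and 3 lower, against 36.8% and 41.5% of all genes, so the members were called there about as often as other genes. A call means an adjusted p under 0.05 by edgeR's quasi-likelihood test, adjusted over all genes tested.

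In astrocytes 3 of 9 genes were higher and 1 lower, beside 20.4% and 31.5% of all genes. In newly formed oligodendrocytes, the stage between precursor and myelinating cell, 2 of 9 were higher and 3 lower, beside 12.7% and 30.1%. In endothelial nuclei 3 of 10 were higher and 2 lower, beside 14.7% and 29.5%, and in mural nuclei (pericytes and smooth muscle) 1 of 9 was higher and 1 lower, beside 5.62% and 21.4%. In fibroblasts 2 of 10 were higher, beside 15.5% of all genes called higher and 24.7% lower. In Schwann cells 3 of 10 were higher and 1 lower, beside 14.8% and 27.0%. In oligodendrocyte precursors (OPC) 1 of 10 was lower, beside 14.3% of all genes called higher and 22.1% lower. In ependymal nuclei 0 of 9 were called by edgeR, with 1 at an unadjusted p under 0.05, and 0 by DESeq2, beside 14.7% and 22.6% of all genes. Of the 27 calls of a higher level in all, 19 were made under every alternative setting that gave a value, and of the 26 calls of a lower level 14 were. The 20 others are given together below. With replicates 2 and 3 only, 29 calls were higher and 22 lower.

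**Figure D1:**
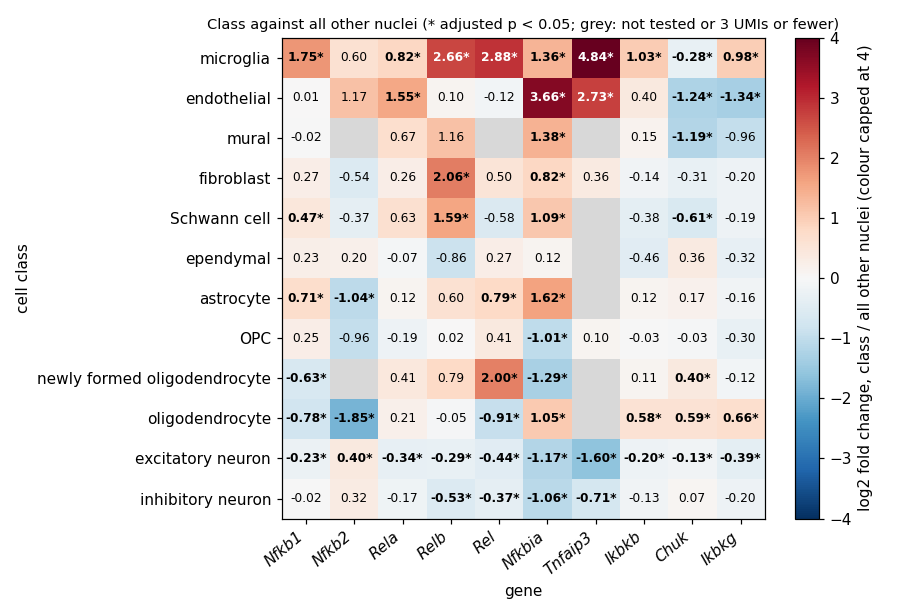
Log2 fold change of each of the 10 genes (columns) in each of 12 cell classes (rows) against all other nuclei of the same libraries, from edgeR over 6 libraries. An asterisk marks an adjusted p under 0.05, and grey marks a gene that was not tested or had at most 3 UMIs in the class. The microglia row holds 8 higher genes and the excitatory neuron row 9 lower ones.

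Among the subunits, Nfkb1 was highest in microglia of the 12 classes. Its level there was 244, 459.7 and 452 CPM in PHD1-/- and 261, 411 and 455 CPM in PHD1+/+ libraries. Replicate 1 was lowest in both genotypes, and the genotypes overlapped. Astrocytes came next, with 142 to 209 CPM in PHD1-/- and 115 to 204.5 CPM in PHD1+/+ libraries. The microglial and astrocyte ranges did not overlap, and microglia ranked first in 6 of 6 libraries. Against all other nuclei Nfkb1 was higher in microglia by 1.75 on the log2 scale (SE 0.10, adjusted p = 1.43e-11) and in astrocytes by 0.71 (SE 0.10, adjusted p = 4.06e-07). Nfkb1 was lower by 0.78 in oligodendrocytes (log2 fold change -0.78, adjusted p = 3.15e-06), by 0.63 in newly formed oligodendrocytes (-0.63, adjusted p = 0.00242) and by 0.23 in excitatory neurons (-0.23, adjusted p = 0.000243). From the second to the twelfth class, mean Nfkb1 levels ran from 178.9 CPM in astrocytes to 58.05 CPM in oligodendrocytes, and the ranges of neighbours in that order overlapped at each step.

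Rel, which encodes c-Rel, had its highest mean of the 12 classes in microglia, which ranked first in 4 of 6 libraries, and the next in newly formed oligodendrocytes. In microglia it was 92.2, 158.7 and 168.0 CPM in PHD1-/- and 74.2, 137 and 170.0 CPM in PHD1+/+ libraries, again with replicate 1 lowest and the genotypes overlapping. In newly formed oligodendrocytes it was 94.6, 73.2 and 99.3 CPM in PHD1-/- and 93.9, 46.7 and 46.5 CPM in PHD1+/+ libraries. Every one of these 6 levels was above the highest astrocyte library, at 43.9 CPM, and above every OPC, oligodendrocyte and neuron library. Rel was higher than in the other nuclei by 2.88 on the log2 scale in microglia (SE 0.13, adjusted p = 3.77e-13) and by 2.00 in newly formed oligodendrocytes (SE 0.23, adjusted p = 9.95e-17). The stages on either side of the newly formed cells were lower, at a mean of 23.55 CPM in OPC and 9.803 CPM in oligodendrocytes, and the mature cells were below the other nuclei by a log2 fold change of -0.91 (adjusted p = 0.0003). Newly formed oligodendrocytes numbered 327 nuclei, with 28 to 90 per library, and held 89 Rel UMIs. The summed level of the microglial marker list was 143.5 CPM in the newly formed class and 169.0 CPM in oligodendrocytes. Its median UMI count was above that of OPC and oligodendrocytes in each library, and the doublet caller did not work in replicate 1. The part of microglial RNA and of doublets in the Rel level was not tested. In neurons Rel was lower, by log2 fold changes of -0.44 in excitatory neurons (adjusted p = 0.000493) and -0.37 in inhibitory neurons (adjusted p = 0.0024), and in astrocytes it was higher by 0.79 (SE 0.19, adjusted p = 0.000916).

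Rela, the p65 subunit, varied less between classes. It was higher in microglia by 0.82 on the log2 scale (SE 0.20, adjusted p = 0.00119) and in endothelial nuclei by 1.55 (SE 0.36, adjusted p = 0.000102), and lower in excitatory neurons by a log2 fold change of -0.34 (adjusted p = 0.00576). Its microglial levels were 38.0, 56.9 and 27.7 CPM in PHD1-/- and 48.4, 23.6 and 23.4 CPM in PHD1+/+ libraries. PHD1-/- replicate 2 was the highest and the genotypes overlapped. Endothelial Rela rested on 33 UMIs, with 52.5, 0 and 113 CPM in PHD1-/- and 53.4, 32.5 and 91.4 CPM in PHD1+/+ libraries.

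Relb was highest in microglia and fibroblasts. In microglia it was 32.5, 89.8 and 86.6 CPM in PHD1-/- and 83.8, 59.0 and 48.8 CPM in PHD1+/+ libraries, with PHD1-/- replicate 1 lowest. In fibroblasts it was 77.1, 111 and 41.9 CPM in PHD1-/- and 37.1, 41.5 and 45.4 CPM in PHD1+/+ libraries, and PHD1-/- replicates 1 and 2 were the highest. Both pairs of groups overlapped. Against all other nuclei the log2 fold change was 2.66 in microglia (SE 0.20, adjusted p = 3.3e-09), 2.06 in fibroblasts (SE 0.26, adjusted p = 3.23e-07) and 1.59 in Schwann cells (SE 0.33, adjusted p = 6.81e-06). Inhibitory neurons were lower by a log2 fold change of -0.53 (adjusted p = 0.00184).

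Nfkb2 was sparse, with 1125 UMIs in all nuclei, 43 in microglia and 0 in mural nuclei. Its level in oligodendrocytes was 2.13, 0.993 and 1.63 CPM in PHD1-/- and 4.66, 3.16 and 0.66 CPM in PHD1+/+ libraries, from 46 UMIs. The genotypes overlapped. The class was lower than all other nuclei by a log2 fold change of -1.85 (SE 0.38, adjusted p = 0.00167). In all nuclei together Nfkb2 was 4.69, 5.63 and 9.47 CPM in PHD1-/- and 5.30, 9.66 and 9.42 CPM in PHD1+/+ libraries. Newly formed oligodendrocytes held 2 Nfkb2 UMIs and were called lower, and no fold is given from so few.

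**Figure D2:**
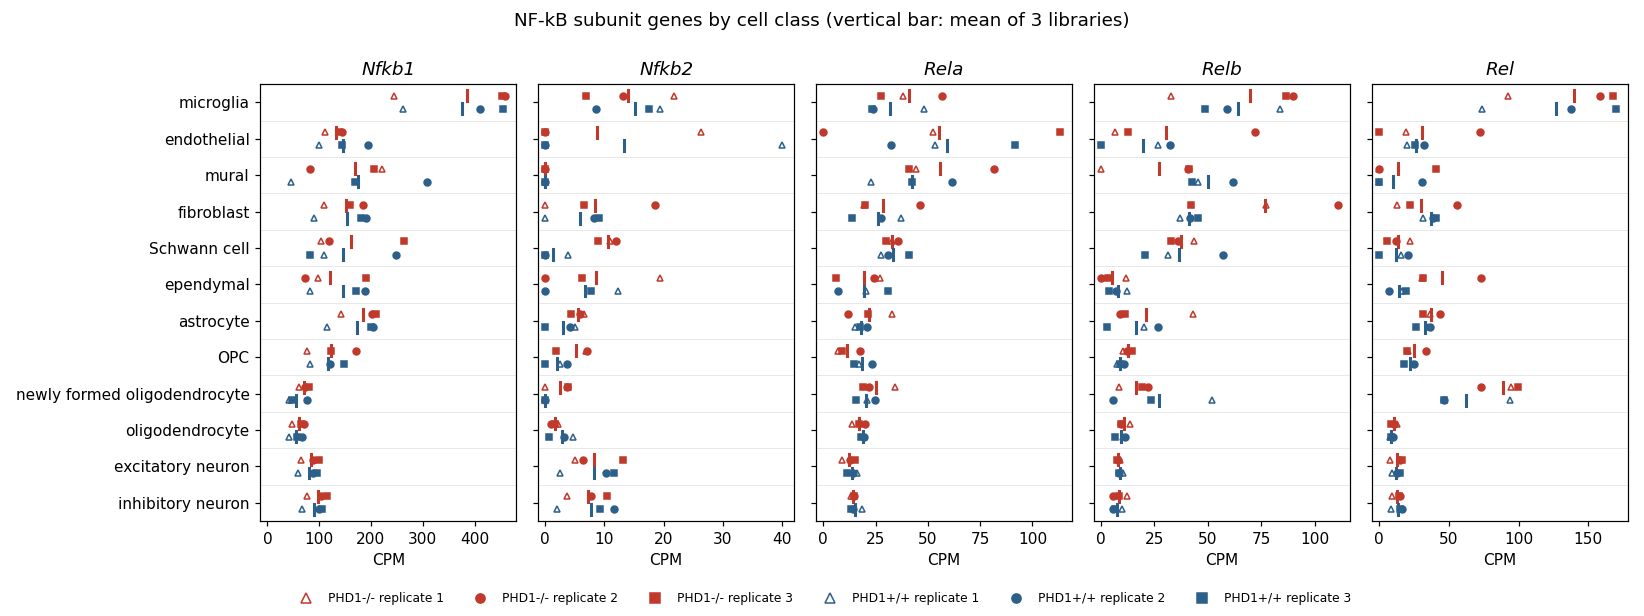
Level of Nfkb1, Nfkb2, Rela, Relb and Rel in CPM (horizontal axes) by cell class (down the page), 1 point per library, with PHD1-/- libraries above PHD1+/+ libraries in each row. Open triangles are replicate 1 and vertical bars are means of 3 libraries. Nfkb1 in microglia lies between 244 and 459.7 CPM, above every astrocyte library, the next class.

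Of the inhibitors, Nfkbia was highest in endothelial nuclei. It was 321, 145 and 264.5 CPM in PHD1-/- and 454, 162.5 and 353 CPM in PHD1+/+ libraries. Replicate 2 was lowest in both genotypes, with 2 and 5 UMIs, and the genotypes overlapped. The log2 fold change against all other nuclei was 3.66 (SE 0.27, adjusted p = 5.79e-41), and 3.48 with replicates 2 and 3 only. The class held 311 nuclei, 10 to 136 per library. Ribosomal protein genes, whose RNA is mostly cytoplasmic, took 5.45, 2.80 and 2.62% of endothelial UMIs in PHD1-/- and 5.33, 2.39 and 5.16% in PHD1+/+ libraries, against 1.02 to 3.49% in mural nuclei. The 5 erythroid genes summed to 12650 CPM in endothelial nuclei. The part of cytoplasmic RNA and of blood in the endothelial Nfkbia level was not tested.

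Nfkbia was also higher in astrocytes by 1.62 on the log2 scale (SE 0.21, adjusted p = 2.14e-07) and in microglia by 1.36 (SE 0.17, adjusted p = 1.05e-06). It was lower in both main neuron classes. Excitatory neurons had 12.6, 5.45 and 6.90 CPM in PHD1-/- and 13.8, 5.67 and 7.32 CPM in PHD1+/+ libraries, a log2 fold change of -1.17 (SE 0.10, adjusted p = 1.21e-08). Inhibitory neurons had 9.69, 6.16 and 6.81 CPM in PHD1-/- and 14.3, 6.11 and 8.84 CPM in PHD1+/+ libraries, a log2 fold change of -1.06 (SE 0.11, adjusted p = 6.85e-08). Replicate 1 was the highest of each genotype in both classes.

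Tnfaip3 was the member most concentrated in microglia. The class held 2.33% of all UMIs and 119 of the 265 Tnfaip3 UMIs, or 44.9%. It held 17.6% of the Rel, 15.1% of the Relb and 9.01% of the Nfkb1 UMIs. Tnfaip3 was 32.5, 26.3 and 39.8 CPM in PHD1-/- and 16.1, 50.5 and 27.4 CPM in PHD1+/+ microglia, with PHD1+/+ replicates 1 and 2 at the ends of the range. Microglia ranked first of the 12 classes in 5 of 6 libraries. The log2 fold change against all other nuclei was 4.84 (SE 0.33, adjusted p = 1.45e-10). In excitatory neurons, with 17 UMIs, it was lower by a log2 fold change of -1.60 (SE 0.33, adjusted p = 0.000366). No Tnfaip3 UMI was found in newly formed oligodendrocyte, mural or ependymal nuclei, where a count of 0 allows up to 8.24 to 31.3 CPM, 61.6 to 133 CPM and 9.40 to 73.0 CPM per library, and in 5 of the 12 classes it was too sparse to test. Of the promoters printed above, those of Rel, Nfkbia and Tnfaip3, each with a kB match, belong to genes that were higher in microglia, and that of Nfkb2 to one that was not called there. Of the genes without a match, Rela and Ikbkg were higher and Chuk was lower in microglia.

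Of the IKK genes, Ikbkb had its highest mean of the 12 classes in microglia, which ranked first in 3 of 6 libraries, at 124.8, 106.2 and 110.9 CPM in PHD1-/- and 83.8, 103.0 and 91.8 CPM in PHD1+/+ libraries. The log2 fold change against all other nuclei was 1.03 (SE 0.11, adjusted p = 7.64e-08). In oligodendrocytes Ikbkb was higher by 0.58 (SE 0.08, adjusted p = 8.67e-05), and in excitatory neurons lower by a log2 fold change of -0.20 (SE 0.06, adjusted p = 0.00648). Chuk had its highest mean of the 12 classes in ependymal nuclei, at 128.5 CPM, which ranked first in 4 of 6 libraries. It was not called there (edgeR adjusted p = 0.108). Chuk was called higher in oligodendrocytes, the next class by mean, at 109.4 CPM. Its levels there were 109, 108.0 and 121.7 CPM in PHD1-/- and 99.9, 110.3 and 107.6 CPM in PHD1+/+ libraries, and the genotypes overlapped. The log2 fold change was 0.59 (SE 0.06, adjusted p = 8.54e-06). Chuk was lower in endothelial nuclei by a log2 fold change of -1.24 (SE 0.35, adjusted p = 0.00188, from 23 UMIs), where the median of all genes tested was -0.55.

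Ikbkg was higher in microglia, by 0.98 on the log2 scale (SE 0.13, adjusted p = 2.05e-06), and in oligodendrocytes, by 0.66 (SE 0.11, adjusted p = 0.000473). It was set apart by its spread between replicates. In oligodendrocytes it was 95.8, 26.5 and 26.0 CPM in PHD1-/- and 63.4, 33.0 and 25.4 CPM in PHD1+/+ libraries. Over all nuclei it was 55.1, 22.6 and 21.1 CPM in PHD1-/- and 44.8, 25.9 and 22.0 CPM in PHD1+/+ libraries, with replicate 1 of both genotypes above the other 4 libraries. Replicate 1 also carried the other barcode list and the lower UMI counts, and their part in this spread was not tested.

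**Figure D3:**
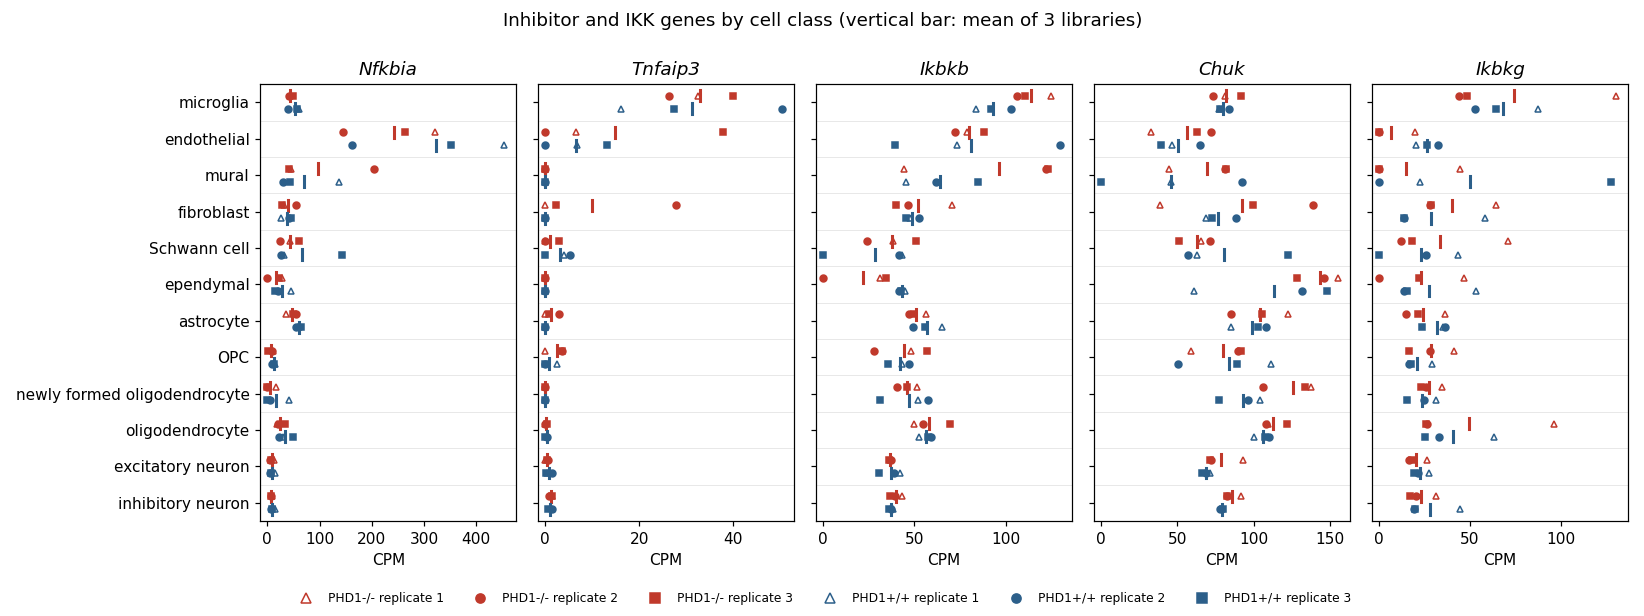
Level of Nfkbia, Tnfaip3, Ikbkb, Chuk and Ikbkg in CPM (horizontal axes) by cell class (down the page), 1 point per library, with PHD1-/- libraries above PHD1+/+ libraries in each row. Open triangles are replicate 1 and vertical bars are means of 3 libraries. Mean Nfkbia is highest in endothelial nuclei (145 to 454 CPM) and mean Tnfaip3 in microglia (16.1 to 50.5 CPM).

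The following calls were ended by at least 1 alternative, with the highest adjusted p reached in brackets. In astrocytes the lower Nfkb2 (-1.04, adjusted p = 0.0408) was lost with DESeq2 and without PHD1-/- replicate 3, PHD1+/+ replicate 2 or PHD1+/+ replicate 3 (0.165). In oligodendrocytes the higher Nfkbia (1.05, adjusted p = 0.0146) was lost without the filter on low counts (0.0568). In newly formed oligodendrocytes the higher Chuk (0.40, adjusted p = 0.0398) was lost without any 1 of the 3 PHD1-/- libraries or PHD1+/+ replicate 2, without the filter and with DESeq2 (0.206). The lower Nfkbia of that class (-1.29, adjusted p = 0.0238) was lost with DESeq2 and without replicate 2 or 3 of either genotype (0.14). Its lower Nfkb2 was lost with DESeq2, with replicates 2 and 3 only and without PHD1+/+ replicate 2 or 3 (0.162). In OPC the lower Nfkbia (-1.01, adjusted p = 0.00924) was lost without PHD1-/- replicate 3 and with replicates 2 and 3 only (0.0727). In microglia the lower Chuk (-0.28, adjusted p = 0.0213) was lost without replicate 2 or 3 of either genotype (0.223). The astrocyte Nfkb2 call rested on 13 UMIs and the Nfkbia call of newly formed oligodendrocytes on 8 UMIs. The median log2 fold change of all genes tested in newly formed oligodendrocytes was -0.34.

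In endothelial nuclei the higher Tnfaip3 (2.73, adjusted p = 0.00146, from 6 UMIs) was lost without PHD1-/- replicate 3 (0.0889), and the lower Ikbkg (-1.34, adjusted p = 0.0215) without PHD1-/- replicate 1 or 3 or PHD1+/+ replicate 1 and with replicates 2 and 3 only (0.288). In mural nuclei the higher Nfkbia (1.38, adjusted p = 0.0177) was lost without PHD1-/- replicate 2 or PHD1+/+ replicate 1, without the filter, with replicates 2 and 3 only and with nuclei of at least 1000 UMIs (0.346). The lower mural Chuk (-1.19, adjusted p = 0.0239) was lost without PHD1-/- replicate 1 or PHD1+/+ replicate 3, with other scaling factors, with DESeq2 and with replicates 2 and 3 only (0.122). The endothelial Ikbkg call rested on 9 UMIs, and the mural calls on 16 UMIs for Nfkbia and 12 UMIs for Chuk. The median log2 fold change of all genes tested was -0.55 in endothelial and -0.79 in mural nuclei. In fibroblasts the higher Nfkbia (0.82, adjusted p = 0.0241) was lost without replicate 2 of either genotype or PHD1+/+ replicate 3 (0.15). In Schwann cells the higher Nfkb1 (0.47, adjusted p = 0.0219) was lost without PHD1-/- replicate 3 or PHD1+/+ replicate 2, without the filter, with DESeq2 and with nuclei of at least 1000 UMIs (0.293). The higher Nfkbia (1.09, adjusted p = 0.000786) of Schwann cells was lost without PHD1-/- replicate 3 (0.0752), and the lower Chuk (-0.61, adjusted p = 0.0116) without PHD1-/- replicate 1 or 3 (0.077).

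In excitatory neurons the higher Nfkb2 (0.40, adjusted p = 0.0319) was lost with DESeq2 and without PHD1-/- replicate 3 or PHD1+/+ replicate 2 or 3 (0.202). The lower Chuk (-0.13, adjusted p = 0.0211) was lost with DESeq2 and without replicate 2 or 3 of either genotype (0.0619), and the lower Ikbkg (-0.39, adjusted p = 0.00862) with replicates 2 and 3 only (0.0565). The lower Relb (-0.29, adjusted p = 0.0326) was lost in all but 3 of 11 alternatives, among them leaving out any library other than PHD1+/+ replicate 3 (0.142). In inhibitory neurons the lower Tnfaip3 (-0.71, adjusted p = 0.0499, from 25 UMIs) was lost without replicate 2 or 3 of either genotype, without the filter, with DESeq2 and with nuclei of at least 1000 UMIs (0.236).

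Microglia and oligodendrocytes were divided into clusters, and the members differed among these. Only replicates 2 and 3 of each genotype had 10 or more nuclei in each of the microglial clusters described, and they are used for microglia and oligodendrocytes. The values are a description with no test, since the clusters were made from the same nuclei. Microglial clusters led by Top2a (67 nuclei), Ifi207 (68 nuclei) and Arhgap45 (639 nuclei, mostly replicate 1) had under 10 nuclei in some of these libraries. They were left out. The microglial cluster led by Lpl and Ccl4, genes of activated microglia, had the highest mean Nfkb1, Relb and Tnfaip3 of the 5 clusters that remained. Its Nfkb1 was 745.8 and 826.9 CPM in the PHD1-/- libraries, against 439.2 and 543.7 CPM in the PHD1+/+ libraries, replicate 2 before 3. The other 4 clusters had means of 353.3 to 432.4 CPM. Relb there was 118.1 and 186.1 CPM in PHD1-/- and 79.0 and 65.9 CPM in PHD1+/+ libraries, from 48 UMIs in 288 nuclei. PHD1-/- replicate 1, with 14 nuclei in this cluster, had 424.5 CPM of Nfkb1 and 84.9 CPM of Relb, so that with it the genotypes overlapped for Nfkb1. For Relb they did not overlap. The share of all genes whose genotypes did not overlap in this cluster was not computed. A genotype difference of Nfkb1 or Relb is therefore not shown here. Mean Tnfaip3 was 81.0 ± 33.2 CPM (SD, n = 4 libraries) in this cluster, against 24.5 to 35.9 CPM in the others. The cluster led by Siglech and Selplg, genes of resting microglia, had the highest mean Rel, 214.5 ± 61.2 CPM (SD, n = 4), and of the other clusters only the one led by Laptm5 lay wholly below its range.

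Among oligodendrocytes, the cluster led by Ptgds and Il33 had Rel levels of 10.8 to 16.7 CPM and that led by Gm32122 had 0.962 to 6.59 CPM, so the 4 libraries of each did not overlap. Nfkbia was likewise 25.8 to 66.0 CPM in the Ptgds cluster and 4.39 to 21.5 CPM in the Gm32122 cluster. Chuk went the other way, with 89.2 to 99.6 CPM in the Ptgds cluster and 124 to 158 CPM in the Gm32122 cluster. Another cluster, led by Anln, lay between these means for Rel, Nfkbia and Chuk, at 9.05, 31.4 and 107.0 CPM. Among excitatory neurons, where all 6 libraries had 10 or more nuclei, Rel was 11.6 to 42.7 CPM in the cluster led by D130009I18Rik and Gm13912. In that led by Gm6213 and Fer1l6 it was 0 to 7.11 CPM, without overlap. UMI counts relative to the library median were 0.58 in the Ptgds and 1.14 in the Gm32122 cluster. They were 2.78 and 1.29 in these 2 excitatory clusters. The part of depth was not tested. The share of all genes without overlap between clusters was not computed, so these differences are not shown to be particular to the members.

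**Figure D4:**
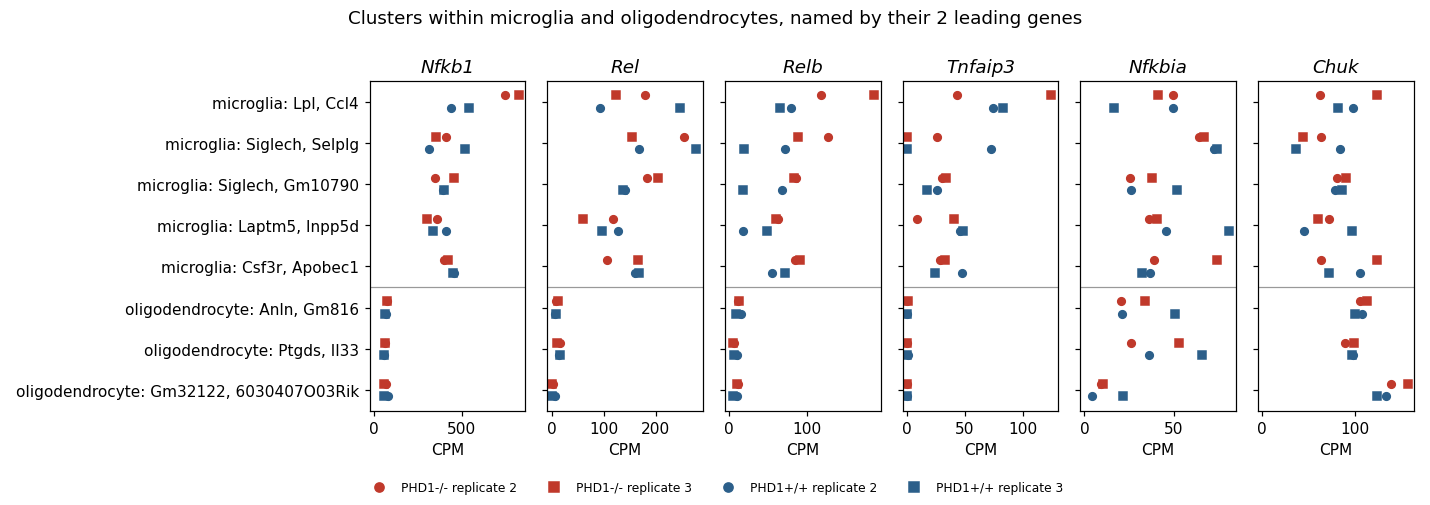
Levels in CPM of the members in clusters of microglia and oligodendrocytes, with points for replicates 2 and 3, PHD1-/- libraries before PHD1+/+ libraries, and clusters named by their leading genes. The Lpl and Ccl4 cluster of microglia has Nfkb1 levels of 439.2 to 826.9 CPM.

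The share of nuclei with at least 1 Nfkb1 UMI was computed after thinning each nucleus to 1000 UMIs, to set depth aside. In microglia of replicates 2 and 3 it was 33.5 and 32.7% in PHD1-/- libraries and 32.1 and 30.9% in PHD1+/+ libraries. In replicate 1 only 11 PHD1-/- and 24 PHD1+/+ microglia reached 1000 UMIs, and 2 and 6 of them held a Nfkb1 UMI. Before thinning the microglial shares were 16.6, 42.2 and 46.0% in PHD1-/- and 16.5, 40.2 and 43.7% in PHD1+/+ libraries. In excitatory neurons the thinned shares were 6.09, 8.15 and 8.03% in PHD1-/- and 5.70, 7.81 and 9.85% in PHD1+/+ libraries, and the unthinned ones 12.97, 36.4 and 41.1% in PHD1-/- and 12.4, 33.8 and 37.3% in PHD1+/+ libraries. In excitatory neurons the genotypes overlapped on both scales. In microglia they overlapped before thinning, and after it only through the few nuclei of replicate 1. Free RNA adds to all such shares.

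In 4 classes some library held under 10 nuclei, and their levels are given as sums with exact Poisson intervals of 95%, which cover counting error only. Border macrophages (103 nuclei) had 369.5 CPM of Nfkb1 (276.8 to 483.3) and 146.4 CPM of Rel (90.6 to 223.8). B lymphocytes (55 nuclei) had 464.3 CPM of Nfkb1 (294.3 to 696.7), 242.3 CPM of Rel from 12 UMIs (125.2 to 423.2) and 222.1 CPM of Ikbkb (110.9 to 397.3). The summed microglial levels of these genes were 415.0, 144.9 and 102.9 CPM, each below that of B lymphocytes. The microglial Nfkb1 and Rel values lay within the B lymphocyte intervals, and only that of Ikbkb lay below its interval. T or NK lymphocytes (67 nuclei) had 350.5 CPM of Nfkb1 (219.7 to 530.7) and 191.2 CPM of Ikbkb (98.8 to 334.0). Cholinergic neurons, the class that holds the motor neurons, numbered 106 nuclei. They had 118.2 CPM of Nfkb1 (102.9 to 135.2), 102.7 CPM of Chuk (88.4 to 118.6) and 3.33 CPM of Nfkbia (1.22 to 7.25).

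The genes whose levels were most like a member were found over 72 sums of class and library by Pearson's r of log2(CPM + 1) among 11428 genes, as a description. The points share libraries and depth. For Nfkb1 these were Diaph2, Fbxw11 and Cyfip1 (r = 0.748, 0.748 and 0.747), and for Rel they were Cic, Atf1 and BC002059 (0.709, 0.685 and 0.682). Relb was most like H2-DMa, Ccm2 and Snx6 (0.691, 0.647 and 0.632), and Rela most like Ssu72, Rac1 and Pabpc1 (0.767, 0.765 and 0.757). Nfkbia was most like the ribosomal protein gene Rpl8, Tmsb4x and Chchd2 (0.825, 0.809 and 0.807). Chuk was most like D430042O09Rik, Bptf and Ubxn7 (0.822, 0.805 and 0.777), and Ikbkg most like Zfp787, Alkbh6 and Gm26542 (0.834, 0.811 and 0.797). Nfkb2 and Tnfaip3 were too sparse to compare.

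Between the genotypes none of the members passed the test. Egln2, the targeted gene, did not pass it either, with a log2 fold change of -1.17 in all nuclei (SE 0.26, unadjusted p = 0.00314 by edgeR). It was also not called in oligodendrocytes, excitatory neurons or inhibitory neurons. A missing call therefore does not show that a gene was unchanged. In all nuclei together 0 of 10 were called, where 0.0% of the 19303 genes tested were called (by edgeR 91 had an unadjusted p under 0.05; by DESeq2 93 did and 0 were called). In a sum over all nuclei, fewer cells of a type and less RNA per cell cannot be told apart. Nfkbia differed most, at 23.5, 10.8 and 15.9 CPM in PHD1-/- and 37.0, 12.4 and 17.03 CPM in PHD1+/+ libraries. It was lower in the PHD1-/- library of each replicate number, the genotypes overlapped, and the log2 fold change was -0.41 (SE 0.47, approximate 95% interval -1.33 to 0.50, adjusted p = 1). With the replicate block it was -0.32 (adjusted p = 0.833). The share of UMIs from ribosomal protein genes was likewise lower in PHD1-/- in each replicate number, at 1.03, 0.482 and 0.474% in PHD1-/- and 1.70, 0.519 and 0.543% in PHD1+/+ libraries. The mitochondrial share was lower in replicates 1 and 3 only, at 0.329, 0.148 and 0.152% in PHD1-/- and 0.566, 0.144 and 0.213% in PHD1+/+ libraries. Their part in the Nfkbia difference was not tested. All 95% intervals of genotype fold changes, here and below, are approximate. They were computed from the SE with the normal distribution, which makes them too narrow for so few libraries.

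For the subunits in all nuclei, the log2 fold change of Nfkb1 was 0.06 (SE 0.24, 95% interval -0.40 to 0.53), that of Rel 0.08 (-0.35 to 0.50), that of Rela -0.06 (-0.42 to 0.30), that of Relb 0.04 (-0.45 to 0.54) and that of Nfkb2 -0.30 (-1.01 to 0.41). For the IKK genes it was 0.06 for Ikbkb (-0.21 to 0.33), 0.12 for Chuk (-0.15 to 0.39) and 0.08 for Ikbkg (-0.79 to 0.96), and for Tnfaip3 it was -0.26 (-1.22 to 0.71). The narrowest intervals were those of Ikbkb and Chuk, and that of Tnfaip3 was the widest. Chuk was 97.3, 84.7 and 87.7 CPM in PHD1-/- and 83.7, 82.2 and 81.5 CPM in PHD1+/+ libraries. Every PHD1-/- library was higher than every PHD1+/+ library, by a small amount in replicates 2 and 3, in a comparison where 4.0% of genes had groups that did not overlap. Chuk also did not overlap, and was higher in PHD1-/-, in newly formed oligodendrocytes (6.62% of genes), excitatory neurons (4.78%) and inhibitory neurons (5.12%), with log2 fold changes of 0.40 (SE 0.32), 0.19 (SE 0.16) and 0.12 (SE 0.15) and adjusted p from 0.99974 to 0.99997.

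**Figure D5:**
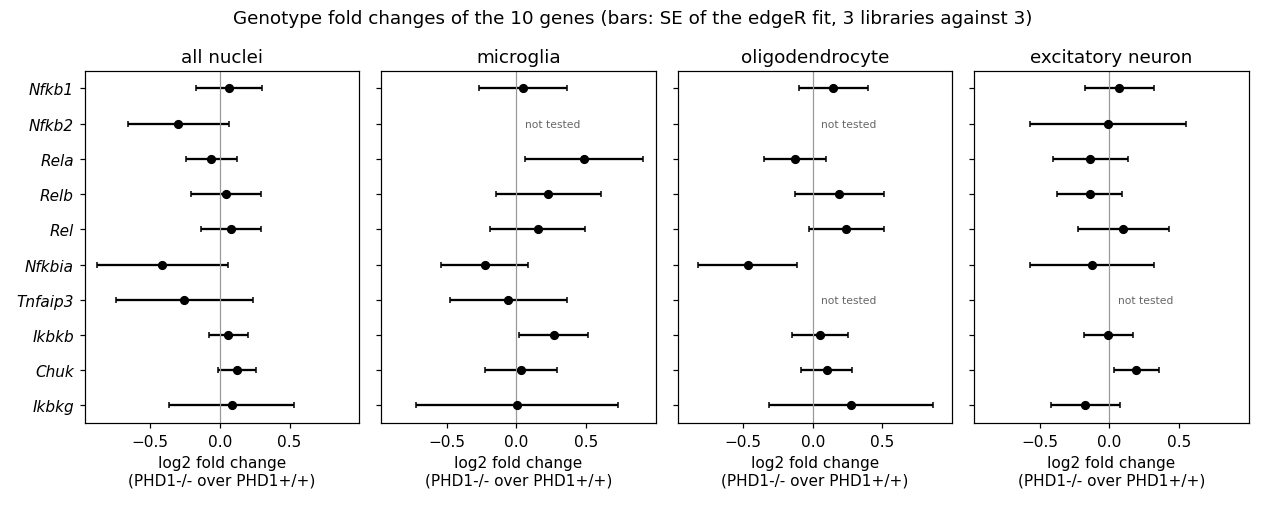
Log2 fold change of each member in PHD1-/- over PHD1+/+ libraries (3 each) with its standard error, from edgeR, in all nuclei, microglia, oligodendrocytes and excitatory neurons. Of the 10 members in all nuclei, Nfkbia is farthest from 0 at -0.41, and none passed the test.

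Within classes, 59 further values of members could be tested, and none was called by edgeR in any class, where 0.0% of all genes were called in each of the 12 classes. With the replicate number as a block 20 genes (0.138%) were called in excitatory and 48 (0.338%) in inhibitory neurons, none of them a member. Over all 69 values, 0 had an unadjusted p under 0.05 by edgeR, DESeq2 called 0, and none of the 974 values under alternative settings was called. Of all genes tested, only 0.337 to 1.2% per comparison had an unadjusted p under 0.05 by edgeR. A count of 0 among the members therefore says little about them. In microglia Nfkb1 was 385 ± 122 CPM in PHD1-/- and 376 ± 102 CPM in PHD1+/+ libraries (SD, n = 3 each), a log2 fold change of 0.04 (95% interval -0.58 to 0.66). Rel there had a log2 fold change of 0.15 (-0.51 to 0.82), Relb 0.23 (-0.51 to 0.97), Rela 0.48 (-0.35 to 1.32), Nfkbia -0.23 (-0.84 to 0.39) and Tnfaip3 -0.06 (-0.88 to 0.77). Each of these 6 intervals held 0. In endothelial nuclei Nfkbia had a log2 fold change of -0.41 (-1.39 to 0.57). In oligodendrocytes it was 19.2, 19.5 and 33.3 CPM in PHD1-/- and 29.9, 22.7 and 48.2 CPM in PHD1+/+ libraries, lower in PHD1-/- in 3 of 3 replicate numbers while the groups overlapped. Its log2 fold change was -0.47, and with the replicate block -0.44 (adjusted p = 0.543). That was the single value of the 69 with an unadjusted p under 0.05 under the block. With the block such a p was reached by 1015 of the 12626 genes tested in oligodendrocytes and by 1127 of the 19303 in all nuclei.

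Ikbkb in microglia was higher in every PHD1-/- library than in every PHD1+/+ library (124.8, 106.2 and 110.9 CPM against 83.8, 103.0 and 91.8 CPM), in a class where 5.06% of genes did not overlap. Its log2 fold change was 0.27 (SE 0.25, 95% interval -0.22 to 0.76, adjusted p = 0.99978). In ependymal nuclei Ikbkb was 31.1, 0 and 34.5 CPM in PHD1-/- and 44.8, 41.7 and 42.8 CPM in PHD1+/+ libraries, also without overlap (5.71% of genes), with a log2 fold change of -0.57 (SE 0.55, adjusted p = 0.99965). The PHD1-/- library at 0 held 18 ependymal nuclei. A test of whether the genotype difference varied between the 12 classes called 0 of 11428 genes (0.0%), and for the 8 members it could test the adjusted p was 1.

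The other genes of the pathway, in 5 lists of 80 genes in all, were followed in the same fits. In microglia, of the canonical upstream genes (receptors, adaptors and the kinases below them) 14 of 21 were higher and 1 lower than in other nuclei, and of the non-canonical genes 5 of 7 tested were higher. Among the other IkB proteins and IKK-related kinases 8 of 10 were higher, among the inhibitors and deubiquitinases 5 of 10 were higher and 1 lower, and among NF-kB target genes 13 of 22 were higher and 1 lower. Of all genes tested in microglia 30.1% were called higher and 37.9% lower. The list medians in microglia were log2 fold changes of 1.14, 2.79, 1.5, 0.43 and 1.94, beside -0.12 over all genes. Tlr4, a receptor for bacterial lipopolysaccharide, was higher by 5.55 (SE 0.21) and Tnfrsf11a (RANK) by 4.79 (SE 0.12). In excitatory neurons 3 of 21 canonical genes were higher and 13 lower, of the non-canonical genes 0 of 7 higher and 5 lower, and of the other IkB list 2 of 9 higher and 5 lower. Of the inhibitors 2 of 10 were higher and 5 lower, and of the targets 1 of 17 was higher and 12 lower, beside 30.2% and 31.5% of all genes.

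By genotype in all nuclei 0 genes of the 5 lists were called by edgeR, and 1, the target Cxcl10, had an unadjusted p under 0.05. Of the canonical list 10 had positive and 11 negative log2 fold changes, of the non-canonical list 6 and 3, of the other IkB list 2 and 8, of the inhibitors 7 and 3, and of the targets 4 and 19. The target median was -0.33, against -0.01 over all genes tested. The ribosomal protein share given above for Nfkbia was lower in PHD1-/- as well, and its part in the target median was not tested. The 4 most abundant targets averaged 104 ± 15.5 CPM in PHD1-/- and 118 ± 28.8 CPM in PHD1+/+ libraries for Bcl2l1, 79.2 ± 1.08 and 83.7 ± 10.1 CPM for Sod2, 33.5 ± 7.40 and 36.4 ± 8.62 CPM for Csf1, and 8.74 ± 2.18 and 11.0 ± 6.37 CPM for Ier3 (SD, n = 3 each). In the canonical list, Il1rap averaged 150.0 ± 34.3 CPM in PHD1-/- and 142 ± 32.8 CPM in PHD1+/+ libraries, and Tab2, Map3k7 and Irak1 had log2 fold changes of 0.01, 0.23 and 0.04. Those of Traf3, Birc2, Map3k14 (NIK, the kinase above IKKalpha) and Tnfrsf11a were 0.00, 0.16, 0.02 and 0.08. Those of Nkiras1, Tbk1, Tank and Nfkbiz were -0.29, 0.09, 0.21 and -0.03, and those of Itch, Otud7b, Cyld and Tax1bp1 were 0.11, 0.15, 0.03 and 0.05. None of these passed the test.

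Cxcl10, which encodes an interferon- and NF-kB-induced chemokine, was the list gene whose genotype call in a class changed with the test. In astrocytes it was 9.93, 0 and 2.58 CPM in PHD1-/- libraries, from 6 UMIs, and 40.1, 47.6 and 197 CPM in PHD1+/+ libraries, from 109 UMIs. Every PHD1-/- library was below every PHD1+/+ library, in a class where 5.35% of genes did not overlap. The log2 fold change was -4.71 (SE 0.89) and was not called by edgeR (adjusted p = 1). It was called with the replicate block (-5.21, adjusted p = 0.00186) and by DESeq2 (-4.73, adjusted p = 0.000347), each as 1 gene of 6655 (0.015%). Without the filter on low counts it was 1 of 3 genes called of 19861 (0.0151%), at -4.67 (adjusted p = 5.22e-13). Leaving out 1 library gave log2 fold changes of -5.49 to -3.60 and adjusted p of 0.565 to 1. Of the 109 PHD1+/+ UMIs, 67 came from replicate 3. A cluster of 12 astrocyte nuclei was led by Cxcl10, with 1, 0 and 4 nuclei in PHD1-/- and 1, 3 and 3 in PHD1+/+ libraries. Its part in the Cxcl10 level of the class was not tested.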

How the data were processed

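The deposited matrices hold raw counts of UMIs per gene and barcode, made by the authors from 10x 3' libraries of single nuclei. Cell Ranger 5.0.1 is named in the file headers, while mm10, Scanpy 1.8.1 and Cell Ranger 5.0.2 stand in the submitters' processing notes. Whether the counting used strand and introns is not stated in the sources used. The 10 genes and the 5 pathway lists were chosen with earlier results of these data known.

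Nuclei were kept if they held 500 or more UMIs from 300 or more genes, with up to 5% mitochondrial UMIs. Scrublet then removed, in replicate order, 1, 164 and 104 nuclei of PHD1-/- and 0, 259 and 151 nuclei of PHD1+/+ libraries as doublets, so it did not work in replicate 1. Nuclei were clustered with Scanpy 1.11.5 (30 principal components, 15 neighbours, Leiden resolution 1) on variable genes without the members and the list genes, 90 in all. Clusters were named from fixed markers. 4759 nuclei (11.356%) stayed unnamed, and 5111 neurons with no transmitter type were in no class. In replicate order, the unnamed were 1381, 237 and 333 nuclei in PHD1-/- and 2255, 329 and 224 in PHD1+/+ libraries. Both sets stayed in the sums of all nuclei and of all other nuclei. Among unnamed clusters that scored highest for endothelial markers, the largest held 189 nuclei, with 22 in PHD1-/- and 160 in PHD1+/+ replicate 1. The part of unnamed nuclei in the genotype differences was not tested.

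The UMIs of each class were summed by library, and edgeR 4.0.16 in R 4.3.3 was applied to the sums (quasi-likelihood test, TMM factors, filterByExpr), with Benjamini-Hochberg adjustment over all genes tested and a threshold of 0.05. Each class was set against all other nuclei of its library, with library as a block. PHD1-/- was set against PHD1+/+ in all nuclei and in 12 classes, and an interaction test compared the genotype difference across classes. The fits were also run on simulated counts, for all nuclei by genotype and for microglia by class. These counts had the same spread for every gene and no replicate effect. They do not show how the fits behave with the spread between these replicates. DESeq2 1.42.0, RLE factors, no filter, a minimum of 1000 UMIs, doublets kept, a replicate block, replicates 2 and 3 only and leaving out each library were alternatives.

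The labels speak of pairs of littermates and do not state that replicate numbers mark them. Deviations of same-numbered libraries from their genotype means correlated at r = 0.829, 0.636 and 0.523 for replicates 1, 2 and 3. PHD1-/- replicate 2 with PHD1+/+ replicate 3 gave 0.484, and PHD1-/- replicate 3 with PHD1+/+ replicate 2 gave 0.394. Replicate 1 with any other number gave -0.72 to -0.541. These values set replicate 1 apart and hardly show that replicates 2 and 3 are pairs. The main genotype tests used no block, and the replicate block was an alternative. P-values measure the spread between these 6 libraries. Named genes were the 10 members, the 4 most abundant genes of each list, any list gene called by edgeR by genotype (there was none), the 3 genes most like each member (for Ikbkb not reported here), and Egln2. Cxcl10, list genes named for microglia and genes that lead clusters were chosen after their values were seen.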

Additional observations from a re-analysis of the deposited data

Results flagged for a closer look

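Ikbkb, which encodes IKKbeta, had genotype groups that did not overlap in 2 classes, in opposite directions. In microglia every PHD1-/- library was above every PHD1+/+ library, with a log2 fold change of 0.27, and in ependymal nuclei every PHD1-/- library was below every PHD1+/+ library, with a log2 fold change of -0.57. Groups likewise did not overlap for 5.06% of all genes tested in microglia and 5.71% in ependymal nuclei. Neither change of Ikbkb passed edgeR's test. The interaction test across all 12 classes gave an adjusted p = 1 for Ikbkb, so the classes were not shown to differ. One PHD1-/- ependymal library held no Ikbkb UMI in 18 nuclei.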

How the results depend on the processing

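Of 1257 class fold changes of members recomputed under an alternative, 1156 kept their direction and their side of the threshold, 77 lost the call, 23 gained one and 1 changed sign. That 1 was endothelial Nfkb2 with replicates 2 and 3 only (-10.03), where the class held 0 Nfkb2 UMIs and no fold can be read. The 27 higher calls ranged from 24 to 30 and the 26 lower calls from 17 to 25 when 1 library was left out, with 17 lower calls without PHD1-/- replicate 3. RLE in place of TMM factors shifted the median log2 fold change of all genes to -0.25 from -0.12 in microglia, to -0.72 from -0.55 in endothelial nuclei and to -0.65 from -0.79 in mural nuclei.

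By genotype, none of the 974 values of members under an alternative was called, so the replicate block changed no member's call. Genes called among all tested, 0 in each class without the block, numbered 1 with it in astrocytes, newly formed oligodendrocytes, OPC, mural and ependymal nuclei, 20 in excitatory and 48 in inhibitory neurons. Without the filter they numbered 3 in astrocytes, 1 in OPC, 2 in fibroblasts and 4 in ependymal nuclei. With replicates 2 and 3 only they numbered 4 in fibroblasts, 1 in excitatory and 4 in inhibitory neurons. DESeq2 called 1, Cxcl10, in astrocytes, and nuclei of at least 1000 UMIs gave 1 in microglia. The interaction test called 17 genes without the filter, 6 with replicates 2 and 3 only and 0 to 1 when 1 library was left out. In the Egln2 check the difference of -12.03 CPM ran from -14.63 to -8.03 CPM when 1 library was left out.

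Depth limits Nfkb2 and Tnfaip3 in the small classes and all members in mural nuclei, where 0 were tested by genotype. Shares of nuclei with a UMI moved in 10 of 10 cases without thinning.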
